A study of Mus musculus with 6 samples.

Results

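Lymphoid priming genes are 35 genes that mark or drive the first steps from a multipotent progenitor towards B, T and innate lymphoid cells. They were measured by RNA sequencing in LSK cells of mouse bone marrow. This sorted fraction lacks lineage markers, carries c-kit and high Sca-1, and contains the stem cells and multipotent progenitors of blood. The members were chosen by gene symbol, and 34 of the 35 were matched among the 16022 symbols of the deposited table. Ighm, the immunoglobulin heavy chain constant gene, was not analysed here. Of the 6 libraries 3 came from wild-type (WT) mice and 3 from HDAC6 knockout mice. HDAC6 is a deacetylase that works mainly in the cytoplasm. The labels give no strain, age or treatment, and do not say which part of Hdac6 is removed, in which cells, or whether each library is a separate animal. P-values therefore measure the spread between these libraries, which may be technical.

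Some LSK cells transcribe lymphoid genes before they commit, a state called lymphoid priming. Transcription factors such as Ikaros, E2A, MEF2C and BCL11A help to set it up. EBF1 and PAX5 then fix the B lineage, Notch1 signalling with TCF-1 and GATA3 starts the T lineage, and ID proteins hold E proteins back in innate lymphoid cells. RAG1 and RAG2 cut antigen receptor genes, and the products of Vpreb1 and Igll1 form the surrogate light chain of the pre-B cell receptor.

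Libraries held from 25993988 to 28743694 estimated counts, so that 3 counts, the most that a count of 0 leaves possible, stood for between 0.106 and 0.114 CPM (counts scaled to library size), for counting error only. Hdac6 measured 68.0, 58.2 and 54.3 CPM across the WT libraries, against 9.62, 7.69 and 11.3 CPM across the knockouts. Its log2 fold change was -2.66 (SE 0.19, edgeR adjusted p = 0.000594), and no other gene of 12875 tested passed. Knockout replicate 3 stood apart from the other knockouts. Chi-square over degrees of freedom between this library and each WT library was 25.8 to 35.5, and 53.8 to 58.4 against the other knockouts. Knockout replicates 1 and 2 also differed from each other, at 45.3, more than WT libraries did among themselves, at 35.1 to 39.2. Of all tested genes 56% were inside the WT range in knockout replicate 3, 38.7% in replicate 1 and 40.7% in replicate 2. The gate genes Kit (1272 ± 127 against 875 ± 185 CPM) and Ly6a, the Sca-1 gene (65.1 ± 4.34 against 107 ± 21.4 CPM; WT against knockout, SD, n = 3 each), had groups that did not overlap. Neither passed in edgeR and both did in DESeq2 (adjusted p = 0.0471 and 0.00718).

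Levels of different genes are compared as deposited FPKM, which is scaled to transcript length. Dntt, the DNA polymerase that adds untemplated bases at antigen receptor joints, was the most abundant member at 322 ± 68.5 FPKM in the WT libraries (SD, n = 3). Lsp1, an actin-binding leukocyte protein, followed at 229.9 ± 34.7 FPKM, and Il2rg, the receptor chain shared by IL-7 and related cytokines, at 187 ± 17.7 FPKM. Bcl11a (57.0 FPKM), Cd79b (52.4 FPKM), Mef2c (47.7 FPKM) and Ikzf1 (40.6 FPKM) came next. At the other end were Pax5 (0.043 FPKM), Ikzf3 (0.057 FPKM), Rag1 (0.15 FPKM), Irf4 (0.22 FPKM) and Ebf1 (0.31 FPKM). The order is coarse, because the WT values of 29 of the 33 pairs of neighbours overlapped. The 4 gaps lay between Il2rg and Bcl11a, Mef2c and Ikzf1, Ikzf1 and Lax1, and Id3 and Ebf1. Flt3, a receptor on lymphoid-primed progenitors and no member, stood at 200.2 ± 25.3 FPKM in WT and 186 ± 40.5 FPKM in knockout libraries (SD, n = 3 each).

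**Figure D1:**
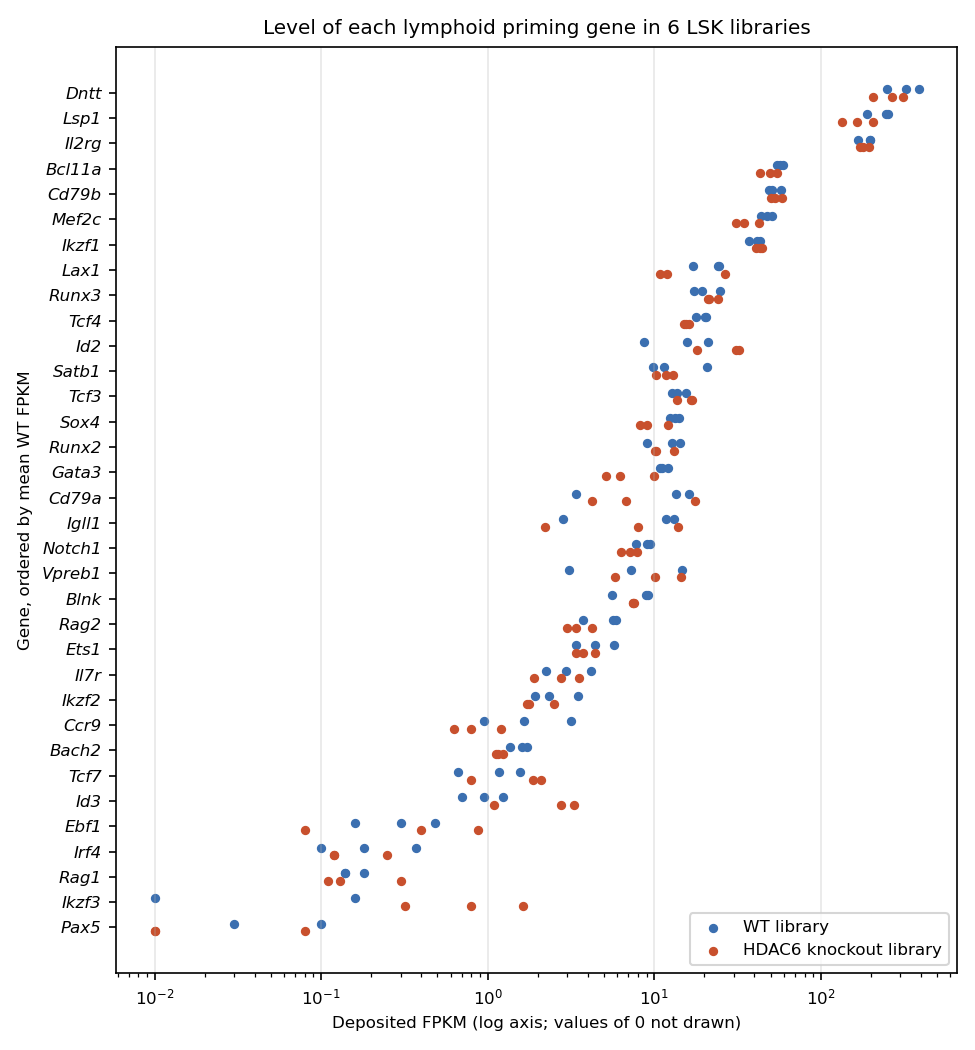
Deposited FPKM (horizontal log axis) of 34 members (vertical axis, ordered by mean WT level), with 1 point per library, blue for WT and red for knockout, and values of 0 not drawn. Dntt, Lsp1 and Il2rg lie at the top, with 134.59 FPKM as their lowest value, and Pax5 at the bottom, at 0.1 FPKM or less.

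No member passed the test between genotypes. By edgeR 0 of the 33 tested members had an adjusted p under 0.05 (Pax5 was too low to be tested), and 0.00777% of all tested genes did, 0 of them higher. At an unadjusted p under 0.05 there were 9 members, against 13.4% of all tested genes. Of these, 2 lay higher in the knockout (7.24% of all genes) and 7 lower (6.15% of all genes). DESeq2 called 1 of 34 members, Ikzf3, on the higher side, and 1.35% of all genes. In 3 members, Ccr9, Ikzf3 and Id3, the absolute log2 fold change reached 1, as in 4.98% of all tested genes.

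The groups did not overlap in 8 members (24.2%), against 18.6% of all tested genes. Of these Ikzf1 and Ikzf3 lay higher (8.86% of all genes), and Tcf4, Sox4, Mef2c, Gata3, Bcl11a and Bach2 lower (9.7% of all genes). On deposited FPKM, Ikzf1 and Bcl11a overlapped and 6 members were left (18.2%), the same share as over all tested genes (18.2%). Without knockout replicate 3, 12 members parted on the lower side (20.2% of all genes), and without WT replicate 3, 11 (18% of all genes). On the higher side there were 5 without knockout replicate 1 (12.2% of all genes), and 4 without knockout replicate 2 (11.5%), WT replicate 2 (13.2%) or WT replicate 3 (16.8%).

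The knockout libraries differed in direction. Of the tested members 20 lay below WT (60.6%, against 50.5% of all tested genes), and their median log2 fold change was -0.14, against -0.00336 over all tested genes. By library, the members' median difference from the WT mean on the log2(CPM + 0.5) scale was -0.12 in knockout replicate 1, -0.27 in replicate 2 and 0.16 in replicate 3. In knockout replicate 1, 13 of 33 members lay below the WT range (30.1% of all tested genes) and 5 above it (31.2%). In replicate 2, 16 lay below (29.7% of all tested genes) and 5 above (29.6%). In replicate 3, 7 lay below (21.6% of all tested genes) and 13 above (22.4%). Members lower at an unadjusted p under 0.05 numbered 2 without knockout replicate 1 (3.32% of all genes), 3 without knockout replicate 2 (2.81%), 7 without knockout replicate 3 (9.46%) and 3 without WT replicate 1 (4.67%). The median was 0.05 without WT replicate 2, 0.005 without knockout replicate 2 and -0.03 without WT replicate 1. It was -0.098 without knockout replicate 1, and -0.24 without either WT replicate 3 or knockout replicate 3.

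**Figure D2:**
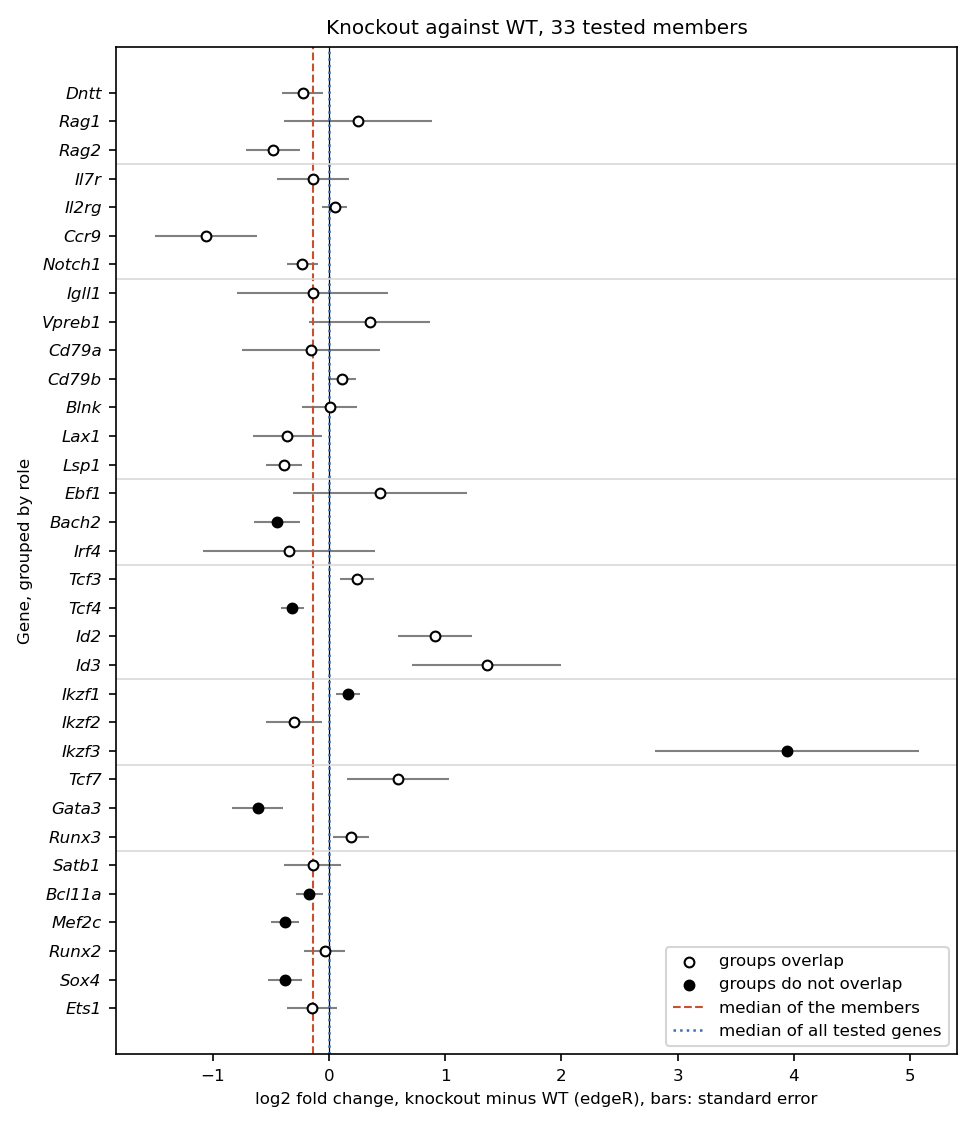
Log2 fold change, knockout minus WT, of the 33 tested members by edgeR (horizontal axis, bars are standard errors), grouped by role on the vertical axis. Filled points have groups that do not overlap; the dashed line is the members' median (-0.14) and the dotted line that of all tested genes (-0.00336).

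**Figure D3:**
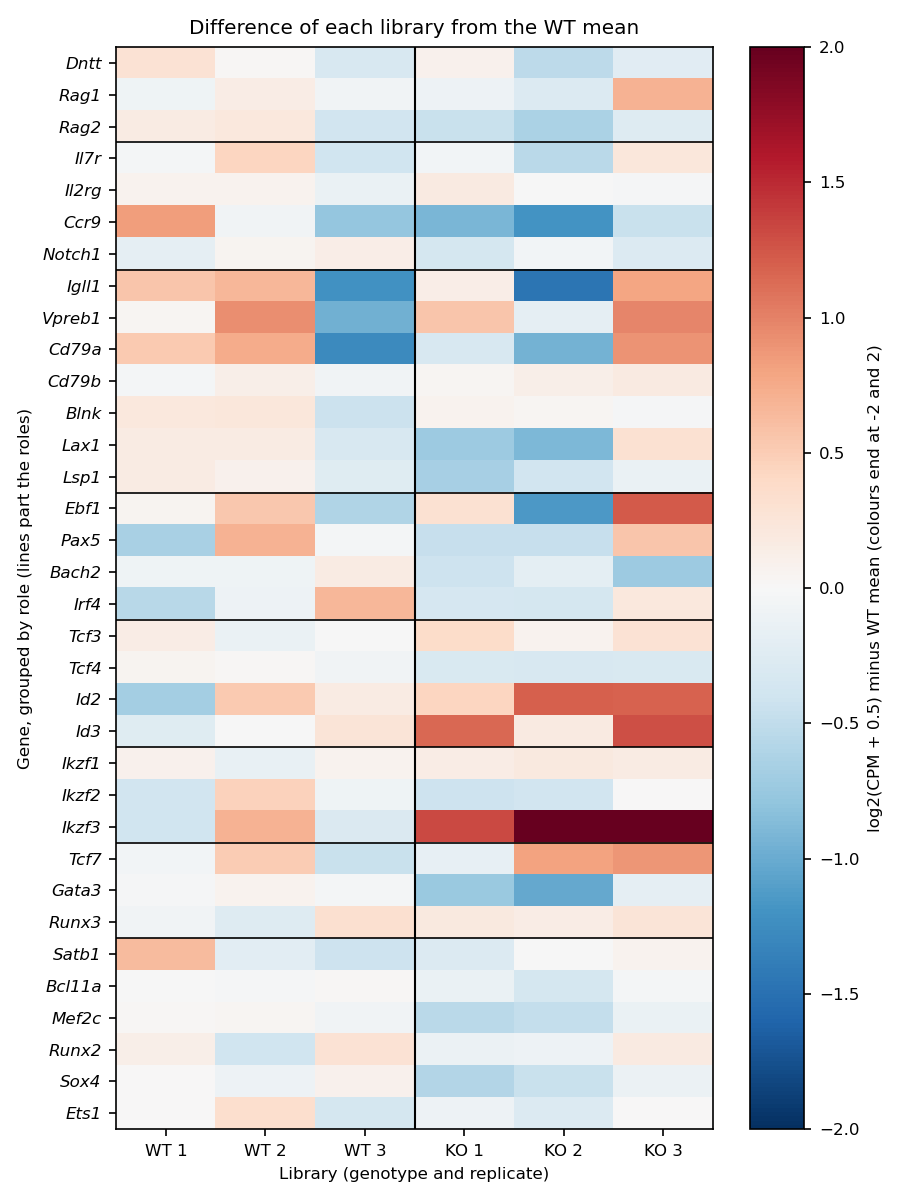
Difference of each library from the WT mean, log2(CPM + 0.5), for 34 members (rows, lines part the roles) in 6 libraries (columns, KO is knockout), red above and blue below. The rows of Igll1, Vpreb1 and Cd79a are blue in WT 3 and KO 2 and red in WT 2 and KO 3.

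Among the recombination genes the groups overlapped throughout. Dntt measured 703, 585 and 462 CPM across the WT libraries, against 608, 399 and 492 CPM across the knockouts, a log2 fold change of -0.22 (SE 0.18). WT replicate 1 was the highest library and knockout replicate 2 the lowest. Rag2 measured 17.7, 18.3 and 11.9 CPM across the WT libraries, against 11.5, 9.97 and 13.0 CPM across the knockouts, -0.48 (SE 0.23, edgeR adjusted p = 0.393) on the log2 scale, with WT replicate 3 inside the knockout range. Its partner Rag1 ranged from 0.90 to 1.131 CPM among WT and from 0.73 to 1.89 CPM among knockout libraries. Per length too Rag2 stood above Rag1, at 5.12 against 0.15 FPKM in the WT mean. In the GENCODE M21 annotation 6.07% of the Rag2 exon bases also belong to B230118H07Rik on the opposite strand, and the strand setting is unknown, so the level of Rag2 is uncertain.

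Of the receptors Ccr9 alone had an unadjusted p under 0.05. Ccr9, a homing receptor for the thymus and gut, measured 12.7, 6.58 and 3.86 CPM across the WT libraries, against 3.42, 2.76 and 4.93 CPM across the knockouts. The WT libraries spanned a 3.29-fold range, and WT replicate 3 lay below knockout replicate 3. The log2 fold change of Ccr9 was -1.06 (SE 0.44, edgeR adjusted p = 0.351), and -0.50 without WT replicate 1. Its exon bases are shared to 21.5% with other annotated genes, among them Slc6a20a on the opposite strand, so this level is uncertain. Il7r, the IL-7 receptor alpha chain of common lymphoid progenitors, measured 8.72, 12.2 and 6.70 CPM across the WT libraries, against 8.63, 5.98 and 10.5 CPM across the knockouts, fully interleaved. Notch1, the receptor that starts the T cell programme, ranged from 69.7 to 86.1 CPM among WT and from 61.5 to 76.0 CPM among knockout libraries, -0.23 (SE 0.13) on the log2 scale. Of the Notch1 exon bases 9.76% are shared with other annotated genes on the opposite strand, so this level is uncertain too. Il2rg ranged from 232 to 269 CPM among WT and from 252 to 289 CPM among knockout libraries. Its exon bases are shared to 30.5% with Gm20489 on the same strand, so this level is uncertain.

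The pre-B receptor genes Igll1, Vpreb1 and Cd79a varied several-fold within each genotype, and the groups overlapped. E proteins, among them the products of Tcf3 and Tcf4, bind short runs of letters in promoters of many B lineage genes. These are CAGGTG (read CACCTG on the other strand) and CAGCTG. The 250 bases before the start sites of Igll1, Vpreb1 and Cd79a, which varied together, and of Blnk, which did not, are shown 5′ to 3′ on each gene's strand, from RefSeq (GRCm38.p6), with these letters in capitals.
Igll1 (chr16:16863986-16864235, minus strand): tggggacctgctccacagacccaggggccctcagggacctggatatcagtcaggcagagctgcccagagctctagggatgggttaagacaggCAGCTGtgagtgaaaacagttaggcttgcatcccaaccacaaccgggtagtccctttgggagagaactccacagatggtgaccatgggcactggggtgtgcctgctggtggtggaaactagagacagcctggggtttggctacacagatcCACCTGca
Vpreb1 (chr16:16869256-16869505, minus strand): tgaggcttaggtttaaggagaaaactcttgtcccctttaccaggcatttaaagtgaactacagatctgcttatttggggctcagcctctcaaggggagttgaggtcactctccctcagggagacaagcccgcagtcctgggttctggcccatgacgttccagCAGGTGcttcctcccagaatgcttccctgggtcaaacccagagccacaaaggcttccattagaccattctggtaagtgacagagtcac
Cd79a (chr7:24897247-24897496, plus strand): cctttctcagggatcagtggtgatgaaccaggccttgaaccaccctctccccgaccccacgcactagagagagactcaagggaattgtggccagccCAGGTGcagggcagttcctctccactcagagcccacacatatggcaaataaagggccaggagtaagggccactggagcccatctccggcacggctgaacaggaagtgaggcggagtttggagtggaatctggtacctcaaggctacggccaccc
Blnk (chr19:40994222-40994471, minus strand): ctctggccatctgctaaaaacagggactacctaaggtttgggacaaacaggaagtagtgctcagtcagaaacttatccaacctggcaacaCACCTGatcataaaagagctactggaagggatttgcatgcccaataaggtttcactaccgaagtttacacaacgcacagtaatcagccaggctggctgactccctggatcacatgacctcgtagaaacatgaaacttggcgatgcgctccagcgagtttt

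Matches lay 158 and 8 bases before the start of Igll1, 88 bases before that of Vpreb1, 154 bases before that of Cd79a and 160 bases before that of Blnk. Promoters on chromosome 18, where Tcf4 lies, were left out of the counts. Of the 28 members with a RefSeq promoter used here, 11 held such letters (39.3%), as did 30.6% of all genes used. Counted per start site, it was 11 of 39 member promoters (28.2%) and 27.7% of all promoters used. The matches describe letters, not bound sites, and were present both in the genes that varied together and in Blnk.

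Igll1, the lambda 5 chain of the surrogate light chain, measured 7.54, 8.17 and 1.85 CPM across the WT libraries, against 5.47, 1.49 and 8.99 CPM across the knockouts. Vpreb1, its partner, measured 3.91, 7.74 and 1.70 CPM across the WT libraries, against 5.84, 3.30 and 7.94 CPM across the knockouts. Cd79a, a signalling chain of the B cell receptor, measured 10.4, 12.2 and 2.65 CPM across the WT libraries, against 5.54, 3.44 and 13.7 CPM across the knockouts. In all of them knockout replicate 3 and WT replicate 2 were the highest libraries, and WT replicate 3 and knockout replicate 2 the lowest. Among the WT libraries alone the highest exceeded the lowest 4.40-fold for Igll1, 4.55-fold for Vpreb1 and 4.59-fold for Cd79a. A range of at least 4-fold, with no WT library at 0, was found in these 3 members and in 4.09% of all tested genes. Genes with a WT library at 0, Ikzf3 among them, were not counted. The log2 fold changes between genotypes, -0.14 (SE 0.65), 0.35 (SE 0.52) and -0.16 (SE 0.60) in the same order, were smaller than their standard errors. Vpreb1 shares 9.01% of its exon bases with Top3b on the opposite strand, so its level is uncertain. In bulk samples, fewer cells of a type and less RNA per cell cannot be told apart.

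The same order of libraries held for Ebf1, the factor that specifies the B lineage, at 1.65, 2.51 and 0.87 CPM across the WT libraries, against 2.06, 0.44 and 4.35 CPM across the knockouts, and for Il7r. Thus 5 of the 33 tested members (15.2%) had knockout replicate 3 and WT replicate 2 as the 2 highest and knockout replicate 2 and WT replicate 3 as the 2 lowest libraries, against 0.715% of all tested genes. This order was noticed in these data and has no test. Pax5, which keeps B cells committed, held 0, 22 and 7 estimated counts across the WT libraries and 2, 2 and 18 across the knockouts, again highest in WT replicate 2 and knockout replicate 3.

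Of other B lineage genes, Vpreb3, a chaperone of pre-B receptor chains, followed that order from 1.05 CPM in knockout replicate 2 to 5.37 CPM in knockout replicate 3. Ms4a1, which encodes CD20 of mature B cells, stayed at 0.49 CPM or less. The 11 of 12 mature B cell markers matched summed to 522 to 728 CPM among WT and 410.2 to 1053 CPM among knockout libraries, 42.0% of it from Cd74, which other antigen-presenting cells also express. The part of B lineage cells in the spread of these members was not tested.

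**Figure D4:**
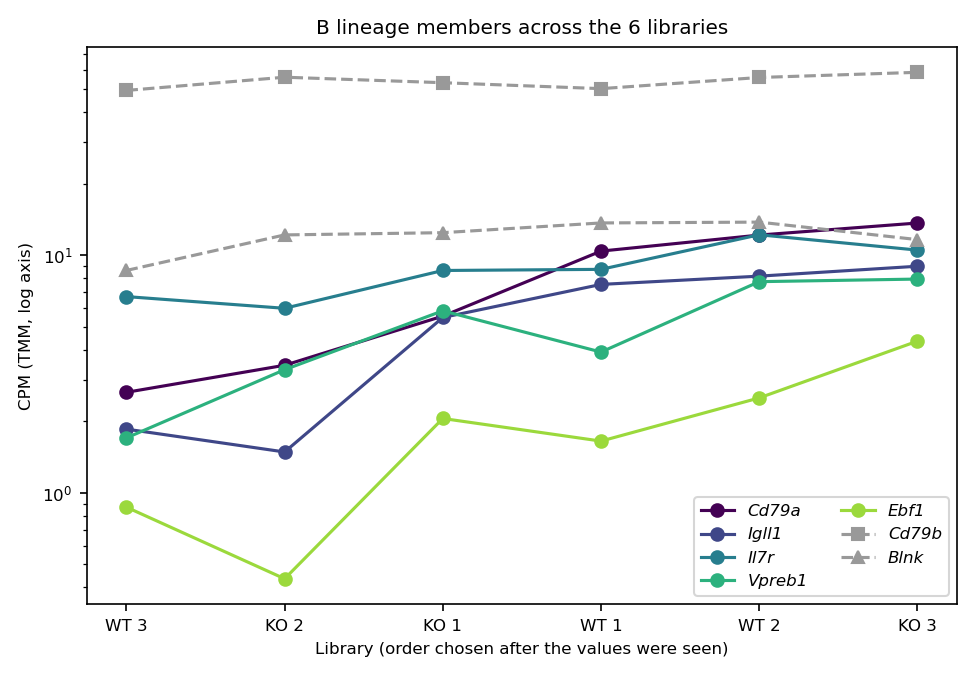
CPM (vertical log axis) of 7 B lineage members in the 6 libraries (horizontal axis, in an order chosen after the values were seen, KO is knockout). The coloured lines (Cd79a, Igll1, Il7r, Vpreb1, Ebf1) are lowest in WT 3 and KO 2 and highest in WT 2 and KO 3, while Cd79b and Blnk (grey, dashed) span 1.19-fold and 1.60-fold.

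Other receptor and adapter genes did not share this order. Cd79b, the partner chain of Cd79a, stayed between 49.4 and 58.9 CPM, and Blnk, an adapter below the receptor, between 8.63 and 13.8 CPM. Lax1, an adapter that dampens lymphocyte receptor signals, measured 50.2, 50.4 and 35.9 CPM across the WT libraries, against 26.8, 23.8 and 55.8 CPM across the knockouts, where replicate 3 was the highest of all and the other knockouts the lowest. Lsp1 measured 297, 282 and 225 CPM across the WT libraries, against 168, 205 and 242 CPM across the knockouts. Its groups overlapped through knockout replicate 3, and the log2 fold change was -0.39 (SE 0.15, edgeR adjusted p = 0.337).

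Of the B lineage factors Bach2 alone had groups that did not overlap. Bach2, a repressor that favours lymphoid over myeloid genes in progenitors, measured 21.8, 21.9 and 25.9 CPM across the WT libraries, against 17.2, 20.2 and 13.7 CPM across the knockouts. All knockout libraries lay below all WT libraries, with a log2 fold change of -0.44 (SE 0.20, edgeR adjusted p = 0.369). Irf4, a factor of light chain rearrangement and plasma cells, stayed between 0.43 and 1.67 CPM. Ebf1 had a log2 fold change of 0.44 (SE 0.75), which turned to -0.43 without knockout replicate 3.

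Tcf4 lay below WT, and the other E protein gene among the members, Tcf3, and the member ID genes Id2 and Id3 lay above it. Tcf4, which encodes E2-2, measured 166, 164 and 153 CPM across the WT libraries, against 130.3, 128 and 129.9 CPM across the knockouts. The groups were clear of each other, and the knockouts were the tighter group. The log2 fold change was -0.31 (SE 0.10, edgeR adjusted p = 0.307), and between -0.34 and -0.29 with any 1 library left out. Tcf3, which encodes E2A, ranged from 32.8 to 39.7 CPM among WT and from 37.8 to 46.2 CPM among knockout libraries. Id2, an E protein inhibitor that innate lymphoid and natural killer cells need, measured 8.94, 21.3 and 16.5 CPM across the WT libraries, against 19.9, 34.1 and 34.0 CPM across the knockouts. Knockout replicates 2 and 3 were above all WT libraries and replicate 1 was not, with a log2 fold change of 0.91 (SE 0.32, edgeR adjusted p = 0.31). The related Id3 measured 0.50, 0.67 and 0.91 CPM across the WT libraries, against 2.13, 0.83 and 2.39 CPM across the knockouts, also overlapping, at 1.36 (SE 0.64, edgeR adjusted p = 0.381) on the log2 scale.

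In the Ikaros family of zinc finger factors Ikzf3 differed most. Ikzf3, which encodes Aiolos, held 0, 16 and 1 estimated counts across the WT libraries, against 31, 161 and 71 across the knockouts, or 0, 0.57 and 0.038 CPM against 1.14, 5.84 and 2.57 CPM. All knockout libraries lay above all WT libraries, and their mean CPM was 15.8-fold that of WT. The edgeR log2 fold change was 3.94 (SE 1.135, adjusted p = 0.298), and DESeq2 gave 3.99 with an adjusted p of 0.0204. With counts near 0 in WT the fitted size is loose, at 3.17 without knockout replicate 2 and 7.11 without WT replicate 2. Ikzf1, the Ikaros gene that lymphoid priming needs, measured 199, 169.8 and 197 CPM across the WT libraries, against 209, 215 and 210.0 CPM across the knockouts. Its groups parted narrowly and overlapped on FPKM, with a log2 fold change of 0.16 (SE 0.10, edgeR adjusted p = 0.494). Ikzf2, which encodes Helios, ranged from 17.1 to 30.9 CPM among WT and from 16.6 to 22.6 CPM among knockout libraries.

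Natural killer and innate lymphoid markers were highest in the libraries where Ikzf3 and Id2 were highest. Of the 16 tested markers 13 lay above WT (median log2 fold change 1.37) and 0 passed in edgeR, with 9 at an unadjusted p under 0.05, all on the higher side. DESeq2 called 5 of them, Ncr1, Klrk1, Gzma, Il2rb and Cd7, all higher. Il2rb, a receptor chain for IL-2 and IL-15, measured 2.87, 5.76 and 5.15 CPM across the WT libraries, against 8.78, 23.6 and 33.3 CPM across the knockouts. Cd7, a surface protein of lymphoid cells, ranged from 0.65 to 3.10 CPM among WT and measured 4.22, 17.9 and 14.9 CPM across the knockouts. The granzyme gene Gzma ranged from 0.34 to 0.39 CPM among WT and measured 0.29, 7.47 and 2.43 CPM across the knockouts, so that knockout replicate 1 was low. All 17 markers summed to 321, 346 and 395 CPM across the WT libraries, against 328, 482 and 439 CPM across the knockouts. Of this sum 73.5% came from Nkg7, whose log2 fold change was -0.03, and Eomes was at 0 counts in all WT libraries and at 0.15 to 0.65 CPM in the knockouts. The part of such cells in the levels of Ikzf3 and Id2 was not tested.

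The T and innate lymphoid factors had no common direction. Gata3, a factor of T and innate lymphoid cells that progenitors also transcribe, measured 32.6, 34.9 and 32.3 CPM across the WT libraries, against 19.6, 16.1 and 29.4 CPM across the knockouts. The WT libraries were tight and knockout replicate 3 was nearest to them. The log2 fold change was -0.61 (SE 0.22, edgeR adjusted p = 0.313), and -0.89 (edgeR adjusted p = 0.0601) without that library. Of the Gata3 exon bases 5.83% are shared with other annotated genes, among them 9230102O04Rik on the same strand, so its level is uncertain. Tcf7, the TCF-1 gene, measured 2.84, 4.46 and 2.04 CPM across the WT libraries, against 2.61, 5.58 and 5.91 CPM across the knockouts, with replicates 2 and 3 above all WT libraries. Runx3, a factor of cytotoxic and innate lymphocytes, ranged from 52.8 to 79.2 CPM among WT and from 70.4 to 76.0 CPM among knockout libraries. The T cell receptor complex genes Cd3d, Cd3e and Cd3g stayed at 0.47 CPM or less. The 11 of 14 T cell markers matched summed to 74.5 to 89.2 CPM among WT and 62.6 to 77.2 CPM among knockout libraries, 78.5% of it from the kinase gene Lck.

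All 6 members placed in the role of early lymphoid factors lay below WT. The roles were drawn with earlier results of these data known. Ikzf1 and Tcf3, placed in other roles, lay above WT, with log2 fold changes of 0.16 and 0.24. The median of the 6 on the log2 scale was -0.16, 0 passed, and 50.5% of all tested genes lay below WT. Mef2c, which favours the lymphoid over the myeloid fate, measured 352, 358 and 331 CPM across the WT libraries, against 238, 249.9 and 315 CPM across the knockouts. The groups did not overlap, and knockout replicate 3 was nearest to WT. The log2 fold change was -0.37 (SE 0.12, edgeR adjusted p = 0.307), and -0.51 (edgeR adjusted p = 0.0537) without that library. Sox4, a factor of early B and T cell progenitors, measured 59.5, 55.3 and 63.2 CPM across the WT libraries, against 39.3, 43.3 and 54.4 CPM across the knockouts. It too parted with knockout replicate 3 nearest to WT, at -0.38 (SE 0.15, edgeR adjusted p = 0.34) on the log2 scale. Of the annotated Sox4 exon bases 54.6% are shared with Gm26735, a noncoding gene on the opposite strand, so its level is uncertain.

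Bcl11a, needed for the first lymphoid progenitors, measured 136, 135 and 139 CPM across the WT libraries, against 125, 107 and 133 CPM across the knockouts, a narrow gap that closed on FPKM. The log2 fold change was -0.17 (SE 0.11, edgeR adjusted p = 0.528). Satb1, a chromatin organiser, was high in WT replicate 1 at 89.8 CPM and ran from 43.2 to 60.5 CPM elsewhere, so that its log2 fold change of -0.14 turned to 0.25 without that library. Ets1, a factor of lymphocyte development, had a log2 fold change of -0.15 (SE 0.21) and Runx2, a relative of Runx3, of -0.04 (SE 0.18), and these also turned sign with 1 library left out. All 6 kept their sign under each other normalization tried.

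**Figure D5:**
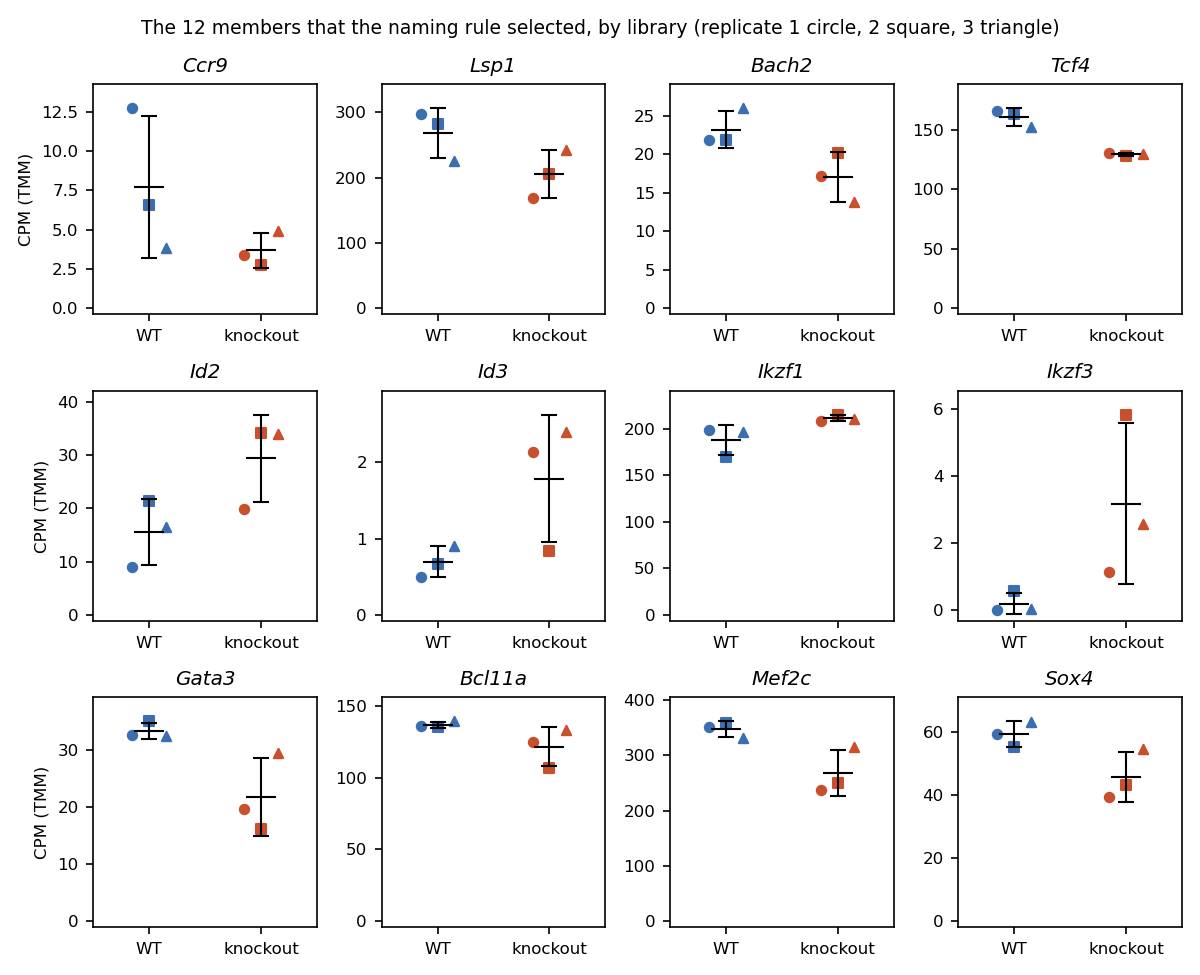
CPM (vertical axes, from just below 0) of the 12 members selected by p, separation or size of difference, with 1 point per library and the mean ± SD of 3 libraries per group in black. In Tcf4 the knockouts lie between 128 and 130.3 CPM, below all WT libraries; in Mef2c, Sox4 and Gata3 the triangle of knockout replicate 3 lies nearest to WT.

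Of the 8 selected members below WT, knockout replicate 3 was the highest knockout in 6, Ccr9, Lsp1, Gata3, Bcl11a, Mef2c and Sox4. It was not in Tcf4 and Bach2. The share of all tested genes with knockout replicate 3 as the highest knockout was not counted. Inside the WT range lay 45.5% of the tested members in knockout replicate 1, 36.4% in replicate 2 and 39.4% in replicate 3. For all tested genes these shares were 38.7%, 40.7% and 56%. Among the knockouts, the summed level of the 12 LSK and stem cell markers was also highest in replicate 3. Cd34 made up 42.2% of that sum, and not each marker was highest there, Ly6a among them. The sum is described next. The summed level was 4013 to 4515 CPM among WT libraries, and 3150.5, 3004 and 4008 CPM across the knockouts. Kit measured 1323, 1367 and 1127 CPM across the WT libraries, against 725, 817 and 1082 CPM across the knockouts. The part of the make-up of the sorted cells in these members was not tested.

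The wider pathways around the members gave 0 calls by edgeR, with 8 genes in all at an unadjusted p under 0.05. By list, in the order below, these were 1 of 14, 1 of 11, 2 of 12, 2 of 20 and 2 of 14. Of all tested genes 13.4% had such a p. DESeq2 called 1 gene of these lists, Il2rb, and 1.35% of all genes. Of 14 tested genes among other lymphoid progenitor genes 6 lay above WT (median log2 fold change -0.03). Of 11 recombination and end joining genes 4 lay above WT (median -0.02). Hmgb2, a DNA-bending helper of the RAG proteins, stood at 930.1 ± 62.6 CPM in the WT libraries and 1181 ± 118 CPM in the knockouts (SD, n = 3 each) without overlap, 0.34 (SE 0.10, edgeR adjusted p = 0.298) on the log2 scale. In IL-7 and common gamma chain signalling 5 of 12 lay above WT (median -0.03), and the survival kinase gene Pim1 had a log2 fold change of 0.58 (SE 0.19). In the Notch pathway 8 of 20 lay above WT (median -0.02), with Dtx3 at -0.55 (SE 0.20) and the coactivator gene Maml2 at -0.55 (SE 0.24). Its target genes Hes1, Hey1 and Dtx1 stayed below 1 CPM. Nrarp, of the same pathway list, ranged from 0.50 to 1.17 CPM among WT and from 0.036 to 1.73 CPM among knockout libraries. In pre-B receptor signalling 8 of 14 lay above WT (7 under upper-quartile scaling; median 0.05), with the adapter gene Lat2 at -0.40 (SE 0.15) and the kinase gene Pik3cd at 0.30 (SE 0.11).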

How the data were processed

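RNA sequencing data of 3 WT and 3 HDAC6 knockout LSK libraries were used. The authors deposited estimated counts and FPKM for each gene and library in a single table, per the file headers. The submitters' processing notes list HISAT2 2.2.1 and SAMtools 1.13, besides featureCounts 2.0.3, GRCm39 and DESeq2. Which tool made which values, the annotation and the strand setting were not given in the sources used. Estimated counts that were not whole (19.6% to 20.9% per library, tolerance 1e-06) were rounded.

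The genotypes were tested with edgeR 4.0.16 (R 4.3.3; robust quasi-likelihood), after filterByExpr (minimum count 10) and TMM normalization, with Benjamini-Hochberg adjustment over 12875 genes and a threshold of 0.05. The standard error is the log2 fold change over the root of F, and CPM is TMM-normalised. An exact permutation test of 3 against 3 libraries cannot go below 0.1 and was not used further. The fits were tested on simulated data. Alternatives, some with DESeq2 1.42.0 and limma 3.58.1, are given with the closing observations.

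Members, roles and gene lists were chosen with earlier results of these data known. Values of each library are given for members with an unadjusted p under 0.05, groups that do not overlap or an absolute log2 fold change of at least 1, and up to 3 genes of smallest p are named per list. Genes beyond this rule were chosen after their values were seen. Some genes that the rule names are not reported here. Promoters are from RefSeq (GRCm38.p6), without those on chromosome 18, and exon overlaps from GENCODE M21 (GRCm38), with no coordinates converted. Of the 35 members 14 share exon bases with another annotated gene, and not each such overlap is given in the text. Chi-square over degrees of freedom was at least 25.8 for each pair of libraries, so none repeats another within sampling noise.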

Additional observations from a re-analysis of the deposited data

How the results depend on the processing

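No member passed under RLE or upper-quartile normalization, no filter or a stricter one (5 CPM in 3 libraries), limma-voom, newer edgeR estimates, non-robust dispersion, limma on log2(FPKM + 1) or log2(FPKM + 0.1), or with any 1 library left out. DESeq2 called 1 member higher, Ikzf3, and 120 genes higher and 61 lower in all. With 1 library left out, edgeR called between 0 and 30 genes higher and between 1 and 14 lower, most without knockout replicate 3, and no members. The members' median log2 fold change ran from -0.24 to 0.05 with 1 library left out and from -0.23 to -0.13 under the other alternatives. The 12 members selected kept their direction in all 201 fits of them. They were selected for their difference in these same libraries, so this was largely fixed in advance and is no independent support. The counts by unadjusted p and by overlap with libraries left out were chosen after seeing the data.

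With the replicate number as a replicate block, 0 members and 1 gene in all were called, and the median was -0.13. In that fit 4 members in place of 7 were lower at an unadjusted p under 0.05. The share of all tested genes in that fit is not given, so this count has no background. Same-numbered libraries did not deviate together (r = 0.03, -0.04 and -0.12 over genes), so the numbers were not taken to pair samples. Depth limits the low members: Rag1 held 20 to 52 and Pax5 0 to 22 estimated counts per library.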

Other observations

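Of 15 tested paralogues 13 lay above WT (10 under upper-quartile scaling; median log2 fold change 0.08) and 0 passed in edgeR or DESeq2, with 1 at an unadjusted p under 0.05 in edgeR. Mef2a, a close relative of Mef2c, measured 24.0, 25.6 and 30.4 CPM across the WT libraries, against 40.1, 38.2 and 38.9 CPM across the knockouts, so that its groups parted upwards, at 0.55 (SE 0.15, edgeR adjusted p = 0.298), where those of Mef2c parted downwards. The E protein inhibitor gene Id1 ranged from 0.32 to 1.44 CPM among WT and from 1.41 to 3.30 CPM among knockout libraries, 1.39 (SE 0.66) on the log2 scale. Irf8, a factor of monocytes and dendritic cells, stood at 578 CPM in knockout replicate 2 and at 176 to 256 CPM elsewhere.

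Among plasma cell genes Sdc1, which encodes syndecan-1, stood at 63.6 ± 4.06 CPM in the WT libraries and 39.2 ± 6.87 CPM in the knockouts, a log2 fold change of -0.70 (SE 0.15, edgeR adjusted p = 0.298). Xbp1, a factor of secretory cells, stood at 181 ± 29.4 and 273 ± 24.7 CPM (SD, n = 3 each) in the same order of groups, or 0.59 (SE 0.13, edgeR adjusted p = 0.298) on the log2 scale. DESeq2 called both, with adjusted p = 0.0113 and 0.0144. Jchain, the antibody joining chain gene, ran from 19.9 CPM in WT replicate 3 to 97.6 CPM in knockout replicate 3, which were also the lowest and highest libraries for Cd79a and Vpreb1.

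Dendritic cell markers summed to 261 to 359 CPM among WT and 331 to 701 CPM among knockout libraries, 71.6% of it from Irf8. Plasma cell markers summed to 266 to 306 CPM and 338 to 402 CPM, 68.3% of it from Xbp1. Neutrophil and monocyte markers summed to 207 to 293 CPM and 138 to 474 CPM, 56.8% of it from the chemokine receptor gene Ccr2. Of the 9 tested 3 lay above WT and 6 below, with a median log2 fold change of -1.19. Their summed level was nevertheless 379 and 474 CPM in knockout replicates 2 and 3, and 138 CPM in replicate 1. The granule gene Ltf measured 15.2, 5.87 and 24.7 CPM across the WT libraries, against 2.86, 2.61 and 1.02 CPM across the knockouts. Its log2 fold change was -2.82 (SE 0.54, edgeR adjusted p = 0.298). DESeq2 called Ltf and the neutrophil genes S100a8 and Ngp.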
